A study of Mus musculus with 12 samples.

Results

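The PIM, SIK and NUAK kinases comprised 8 genes, taken by their symbols as Pim1, Pim2, Pim3, Sik1, Sik2, Sik3, Nuak1 and Nuak2 from the 33641 genes listed in each sample. All 8 were above the filter of an average of 0.5 TPM (transcript abundance scaled for gene length, a share of all transcripts in a sample), which 12526 genes passed. They were measured by RNA sequencing in the left ventricle (LV) and right ventricle (RV) of WT-PLN and R14del-PLN mouse hearts, with 3 samples in each of the 4 groups. Phospholamban (PLN) is the small membrane protein that restrains the calcium pump SERCA2a of the sarcoplasmic reticulum, and R14del removes an arginine from it. Both lines were C57BL/6J by label, 12 to 14 weeks old, and both carried the human PLN coding sequence knocked into the mouse gene, so the controls were humanized too. Per the study, chimeras of 129/Sv-CP and C57Bl/6J were crossed with Sox2-Cre animals and gave a hybrid line, the animals were males, and the mutants were heterozygous (R14del/WT). The sample titles call the mutants KO, although they carry a knock-in. No treatment was labelled.

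The PIM kinases (Pim1, Pim2 and Pim3) are constitutively active serine/threonine kinases with no regulatory domain, so their activity follows how much protein is made. Cytokine receptors acting through JAK and STAT proteins are well known inducers of PIM genes, and the kinases promote survival by phosphorylating the death factor BAD and cell cycle inhibitors such as p21. The salt-inducible kinases (SIK) and the NUAK kinases are relatives of AMP-activated kinase (AMPK) that the tumour suppressor LKB1 switches on by phosphorylation. SIKs hold CRTC coactivators and class IIa histone deacetylases in the cytoplasm on 14-3-3 proteins, and protein kinase A (PKA) relieves this hold. Sik1 is itself an early gene induced by cAMP and CREB. NUAK1 and NUAK2 act on myosin phosphatase and so on contraction and adhesion.

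In GRCm38 with GENCODE M21, all 8 genes are protein coding. Pim1 lies on chromosome 17 from 29490753 to 29496112, Pim2 on chromosome X from 7878262 to 7883432 and Pim3 on chromosome 15 from 88862186 to 88865726. Sik1 lies on chromosome 17 from 31844250 to 31855804, Sik2 on chromosome 9 from 50892801 to 51009073 and Sik3 on the same chromosome from 46012820 to 46224194. Nuak1 lies on chromosome 10 from 84370905 to 84440597 and Nuak2 on chromosome 1 from 132316126 to 132333488. Sik2 overlaps Ppp2r1b on the opposite strand (mean of 2.84 TPM), and Pim1 overlaps the antisense gene Gm26885. Pim2 matches Gm7645 at 94.9% identity and Gm21182 at 94.7% (means of 0.139 and 0.205 TPM). Each match spans the length of the shorter transcript of the pair. The values of Sik2, Pim1 and Pim2 are therefore less certain, because whether reads were counted by strand or shared between copies is not stated.

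RefSeq promoter windows in GRCm38.p6 matched 6 of the 8 genes, with 7 windows. The windows of Pim3 and Pim1 are shown because R14del-PLN samples lay below WT-PLN samples for Pim3 and above them for Pim1 in the RV. Both are given up to the base before the GENCODE gene, with matches to the CCAAT box (CCAAT, or ATTGG where it lies on the other strand) in capitals.
Pim3, chr15:88861944-88862185, plus strand: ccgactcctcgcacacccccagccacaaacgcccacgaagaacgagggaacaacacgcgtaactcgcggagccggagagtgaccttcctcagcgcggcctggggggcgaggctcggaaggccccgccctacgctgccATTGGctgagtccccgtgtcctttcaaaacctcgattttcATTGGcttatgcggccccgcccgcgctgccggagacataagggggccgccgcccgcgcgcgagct
Pim1, chr17:29490535-29490752, plus strand: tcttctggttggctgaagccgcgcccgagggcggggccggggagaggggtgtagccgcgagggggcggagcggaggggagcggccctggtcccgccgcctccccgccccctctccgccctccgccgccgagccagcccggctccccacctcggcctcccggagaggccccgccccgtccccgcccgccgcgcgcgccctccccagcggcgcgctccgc
The Pim3 window held the CCAAT box at 113 and 73 bases before the RefSeq start site, and the Pim2 window held it at 101 bases before. This motif, which was added after the sequences had been seen, occurs in 33.8% of the 32851 RefSeq windows of 250 bases. The windows were also searched on both strands for the cAMP response element TGACGTCA (in 1.55% of all windows), its half-site TGACG (17.8%), the STAT site TTCNNNGAA (7.02%), the E-box CACGTG (6.02%) and the glucocorticoid receptor half-site AGAACA (16.1%). No such match lay in the Pim3 window or in the printed Pim1 window. Sik3 held TGACG at 133, 116 and 57 bases before its start and CACGTG at 120, overlapping the match at 116. The other Pim1 window held CACGTG at 58 bases before its start. A match or its lack describes these letters only.

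Pln, the targeted gene, was at 1800 ± 85.1 TPM in WT-PLN LV and 1780 ± 163 TPM in WT-PLN RV (SD, n = 3 each). In the mutants the LV and RV levels were 1630 ± 79.5 and 1730 ± 80.6 TPM. How reads of the human coding sequence were assigned is not stated, so this level cannot tell the genotypes apart. Ventricular cardiomyocyte markers were high in all 12 samples, with Myl2 between 10600 and 16500 TPM. The 2 WT-PLN samples with number 1 stood apart: Y-linked transcripts summed to 0.25 and 0.284 TPM in them and to between 43.5 and 63.7 TPM in the remaining 10 samples, although the study used males. The labels give no sequencing run, but the name of the deposited file of RV R14del-PLN sample 3 carries another run number than the rest. Transcripts encoded by mitochondrial DNA made up 44.0% to 54.5% of TPM in 11 samples and 37.3% in LV R14del-PLN sample 3, and 17924 to 18879 genes were above 0. In that sample each of the 8 kinases was at its highest among the 3 mutant LV samples, and their LV genotype values without it were between -1.90 (Sik1) and -0.01 (Pim1). Leaving mitochondrially encoded genes out of the scaling moved all 32 group means of the kinases by more than their SD. The results below are given with and without the number 1 pair where they rest on it.

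Pim3 had the highest TPM of the 8 kinases in all 12 samples. In the LV of WT-PLN hearts it was followed by Sik3 at 17.8 ± 2.81 TPM, Sik1 at 14.8 ± 10.2 TPM and Nuak1 at 9.07 ± 1.14 TPM (SD, n = 3 each). The ranges of Sik3 and Sik1 overlapped there, as did those of Sik1 and Nuak1. Pim1 and Sik2 followed at 3.68 ± 1.01 and 3.41 ± 0.707 TPM, and their ranges overlapped. Nuak2 and Pim2 were lowest at 1.67 ± 0.744 and 1.63 ± 0.152 TPM, and could not be ordered either. In all 6 R14del-PLN samples the order began with Pim3, Sik3 and Nuak1, and Sik1 came after Pim1 and Sik2. In WT-PLN sample 2 of both ventricles, by contrast, Sik1 was second. All 8 genes together summed to 87.3 ± 12.5 TPM in the WT-PLN LV and 74.6 ± 7.27 TPM in WT-PLN RV, and to 55.7 ± 8.02 and 50.7 ± 1.91 TPM in the mutant LV and RV (SD, n = 3 each).

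**Figure D1:**
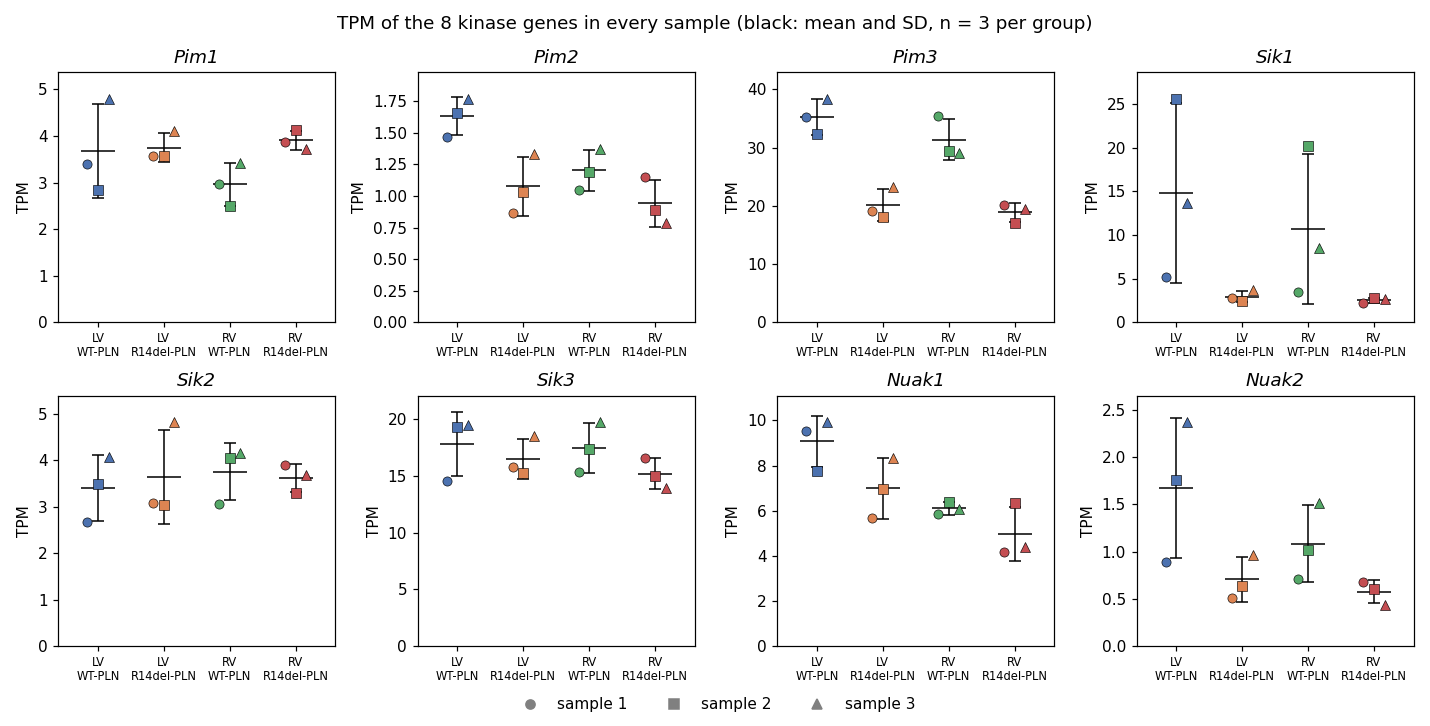
TPM (y axes, from 0) of each kinase gene in every sample of the 4 groups of ventricle and genotype (x axes), with the group mean and SD in black. Pim3 samples of R14del-PLN hearts lie between 17.1 and 23.2 TPM and those of WT-PLN hearts between 29.1 and 38.4 TPM, and Sik1 spreads from 3.42 to 25.6 TPM in WT-PLN hearts.

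The first question was how each kinase stood in R14del-PLN against WT-PLN hearts of the same ventricle. The genes were chosen by family, with their TPM differences between the genotypes already known, so the genotype values of these genes are a description with no test. Changes are log2 fold changes of TPM + 1 from limma, with their standard error (SE). Calls required 1.5-fold or more together with an adjusted p (Benjamini-Hochberg) no higher than 0.05, a rule that 0.519% of all 12526 genes met in the LV and 0.271% in the RV. Of the 8 kinases, 1 was called in the LV (Pim3, lower, as were 0.423% of all genes) and 0 in the RV (lower calls, 0.200% of all genes). At an unadjusted p of at most 0.05 in the same limma fit, the numbers were 4 in the LV and 2 in the RV, beside 9.60% and 6.22% of all genes. In heart tissue, fewer cells of a type and less RNA per cell cannot be told apart.

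Pim3, the abundant PIM kinase of these hearts, was at 35.2, 32.3 and 38.4 TPM in WT-PLN LV samples and stood at 19.1, 18.0 and 23.2 TPM in R14del-PLN LV. In the RV it was at 35.4, 29.5 and 29.1 TPM in WT-PLN and stood at 20.2, 17.1 and 19.5 TPM in R14del-PLN hearts. Every mutant sample lay below every WT-PLN sample of either ventricle. In the LV it fell by 43.1% in mean TPM, with a log2 fold change of -0.79 (SE 0.13). In the RV the mean was 0.605 times that of WT-PLN and the log2 fold change was -0.69 (SE 0.13), which passed the fold but not the adjusted p. The study, with its own program and the same limits of fold and adjusted p, reported Pim3 as lower in both ventricles. The LV call was lost without LV WT-PLN sample 2 (-0.85) or 3 (-0.73), without LV R14del-PLN sample 1 (-0.76) or 2 (-0.71), and with the LV samples fitted alone (-0.79). The RV value was called once LV R14del-PLN sample 3 was left out (-0.69) and under quantile normalization. Without both number 1 samples the values were -0.79 in the LV, still called, and -0.61 in the RV. Without RV R14del-PLN sample 3, whose file name carries the other run number, the RV value was -0.72.

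Pim1, the founding member of the family and a kinase of cardiomyocyte survival, did not share this pattern. It was at 3.40, 2.83 and 4.80 TPM in the WT-PLN LV and 3.57, 3.56 and 4.11 TPM in R14del-PLN LV, within each other's range (log2 fold change 0.04, SE 0.15). In the RV it was at 2.96, 2.50 and 3.43 TPM in WT-PLN and 3.88, 4.12 and 3.72 TPM in R14del-PLN hearts, so the mutant samples lay above (0.31, SE 0.15, not called). Pim2, an X-linked PIM kinase best known from blood cells, was at 1.47, 1.66 and 1.77 TPM in the WT-PLN LV and 0.866, 1.03 and 1.33 TPM in R14del-PLN LV. These did not overlap (-0.35, SE 0.13, not called), whereas the RV samples did (1.05, 1.19 and 1.37 against 1.15, 0.889 and 0.784 TPM, -0.19, SE 0.13). The lowest WT-PLN values of Pim2 were those of the number 1 samples in both ventricles.

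Sik1, the cAMP-inducible SIK, showed the largest fold of the 8 genes and also the largest spread. It was at 5.20, 25.6 and 13.6 TPM in the WT-PLN LV and stood at 2.76, 2.42 and 3.67 TPM in R14del-PLN LV. In the RV it was at 3.42, 20.2 and 8.45 TPM in WT-PLN and 2.17, 2.73 and 2.66 TPM in R14del-PLN hearts. The groups did not overlap in either ventricle, and among the WT-PLN samples number 2 was highest and number 1 lowest in both ventricles. The log2 fold changes were -1.77 (SE 0.51) in the LV and -1.45 (SE 0.51) in the RV, and neither was called. Without LV WT-PLN sample 2 the LV value was -1.28, and without RV WT-PLN sample 2 the RV value was -0.88. Without both number 1 samples they were -2.33 and -2.01, and Sik1 was then called in both ventricles.

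Sik2 and Sik3, the broadly expressed SIKs, overlapped between genotypes in both ventricles. Sik2 was at 2.67, 3.49 and 4.08 TPM in the WT-PLN LV and 3.09, 3.04 and 4.82 TPM in R14del-PLN LV (log2 fold change 0.07, SE 0.17). In the RV Sik2 was at 3.06, 4.06 and 4.16 TPM against 3.90, 3.30 and 3.68 TPM (-0.03, SE 0.17). Sik3 was at 14.5, 19.3 and 19.5 TPM in the WT-PLN LV and 15.8, 15.2 and 18.5 TPM in R14del-PLN LV (-0.09, SE 0.14), and at 15.3, 17.4 and 19.7 against 16.6, 15.0 and 13.9 TPM in the RV (-0.19, SE 0.14).

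Nuak1, the main NUAK of these hearts, was at 9.53, 7.77 and 9.91 TPM in the WT-PLN LV and 5.66, 6.97 and 8.34 TPM in R14del-PLN LV (log2 fold change -0.34, SE 0.16). In the RV it was at 5.83, 6.37 and 6.09 TPM in WT-PLN and 4.16, 6.35 and 4.41 TPM in R14del-PLN hearts (-0.27, SE 0.16). The genotypes overlapped in both ventricles. Nuak2, which is stress-inducible, was at 0.888, 1.76 and 2.37 TPM in the WT-PLN LV and 0.514, 0.634 and 0.969 TPM in R14del-PLN LV, with an overlap at WT-PLN sample 1 (-0.62, SE 0.20). In the RV it was at 0.715, 1.02 and 1.52 TPM in WT-PLN and 0.676, 0.609 and 0.438 TPM in R14del-PLN hearts, with no overlap (-0.39, SE 0.20). It was not called in either ventricle. Without both number 1 samples it was at -0.85 in the LV, where it was then called, and at -0.52 in the RV. At levels this near the added 1 TPM, the log2 fold change understates the ratio, which was 0.422 for the LV means.

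Of the 8 kinases, 3 had non-overlapping and lower R14del-PLN samples in the LV (Pim2, Pim3 and Sik1), a pattern seen in 8.47% of all tested genes. In the RV 3 did (Pim3, Sik1 and Nuak2), beside 5.79% of all genes. Pim3 and Sik1 did so in both ventricles, as did 2.38% of all genes. In either direction, 3 kinases had no overlap in the LV and 4 in the RV, with Pim1 added, beside 11.0% of all genes in the LV and 11.0% in the RV. The log2 fold change was below 0 for 6 kinases in the LV and 7 in the RV, beside 71.7% and 50.9% of all genes. The median log2 fold change of the 8 kinases was -0.34 in the LV and -0.23 in the RV, while the medians of all genes were -0.09 and near 0. Relative to those medians, Pim3 was at -0.70 and -0.69 and Sik1 at -1.69 and -1.45.

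**Figure D2:**
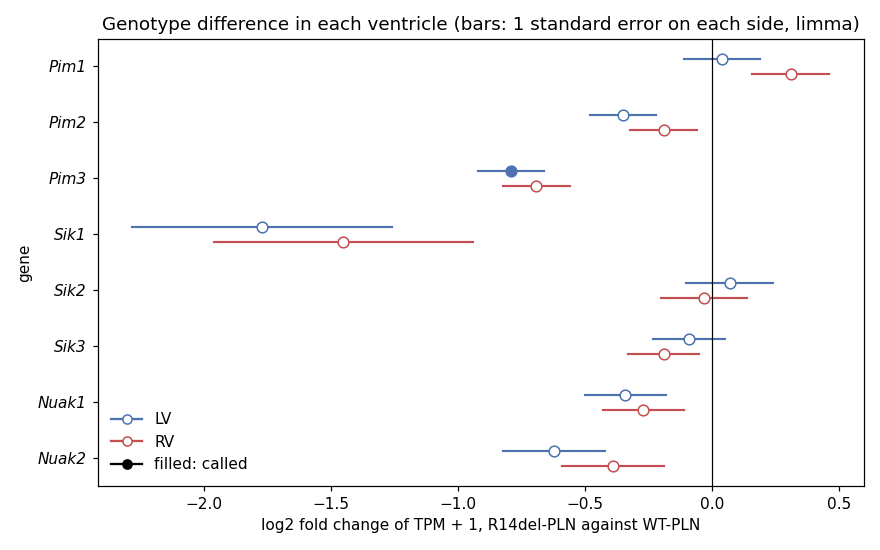
Log2 fold change of TPM + 1 in R14del-PLN against WT-PLN hearts (x axis) for each kinase gene (y axis) in the LV and RV, with bars of 1 standard error on each side and a filled point where the gene was called. Only the LV value of Pim3 (-0.79) is filled, and Sik1 (-1.77 in the LV) has the longest bars.

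The share of each kinase in its family's summed TPM was set beside these values. Pim3 supplied 87.0% ± 1.4 of the summed PIM TPM in the WT-PLN LV and 80.6% ± 0.853 in R14del-PLN LV, and 88.2% ± 2.07 and 79.6% ± 1.98 in the RV (SD, n = 3 each). The share of Pim1 was 8.95% ± 1.53 and 15.1% ± 0.73 in the LV, and 8.39% ± 1.49 and 16.5% ± 1.83 in the RV. Neither share overlapped between genotypes. Shares of the same sum depend on each other, and the TPM of Pim1 itself overlapped in the LV. Sik1 supplied 37.6% ± 14.9 of the SIK sum in WT-PLN LV and 12.7% ± 0.942 in R14del-PLN LV, with 30.1% ± 16.8 and 11.9% ± 2.02 in the RV. The share of Sik3 was 52.4% ± 12.5 and 71.7% ± 2.71 in the LV and 57.7% ± 14.6 and 71.1% ± 2.33 in the RV, where its ranges overlapped. Nuak1 made up 84.6% ± 5.99 of the NUAK sum in WT-PLN LV and 91.0% ± 1.2 in R14del-PLN LV, and 85.1% ± 4.59 and 89.4% ± 2.95 in the RV, with ranges that overlapped in both ventricles.

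**Figure D3:**
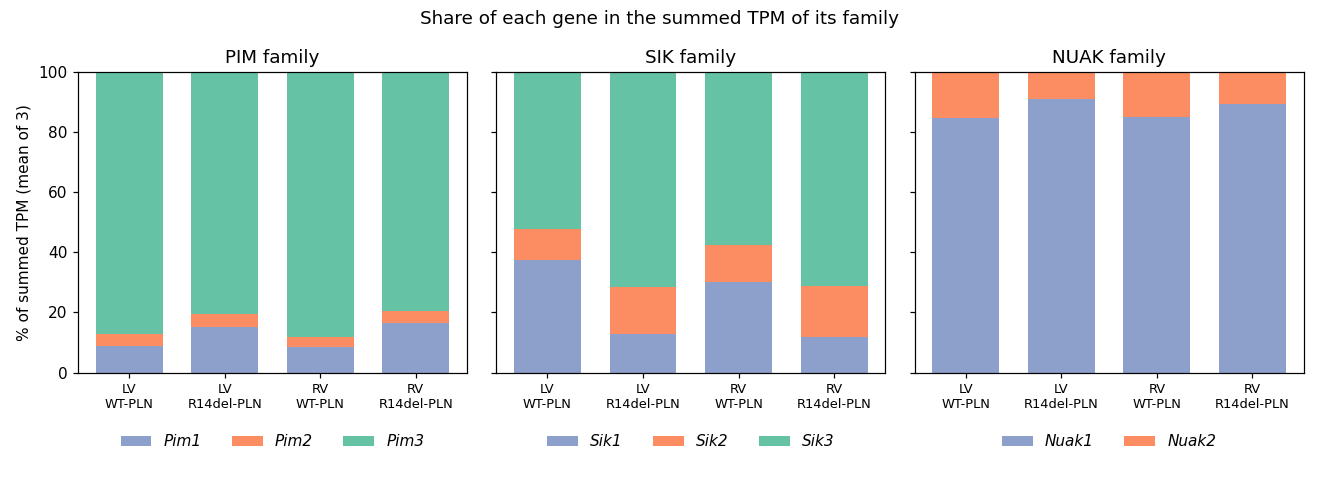
Percent of the summed TPM of the PIM, SIK and NUAK families (y axis, 0 to 100) that each member supplied in the 4 groups (x axes), as the mean of 3 samples. The Sik1 part shrinks from 37.6% to 12.7% in the LV and from 30.1% to 11.9% in the RV, and Pim3 remains the main part of the PIM bars at 79.6% or more.

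Levels of early response genes were set beside these values. A list of 22 immediate early genes, transcription factors and regulators that cells switch on within minutes of a stimulus, had a median log2 fold change of -1.27 in the LV and -1.17 in the RV, with all 22 below 0 in each. Of these, 1 was called in the LV (Ier5, -0.97) and 0 in the RV, where Nr4a1, an orphan nuclear receptor (-3.0 and -2.7), and the transcription factors Egr1 (-2.68 and -2.67), Fos (-2.20 and -1.70) and Egr3 (-2.03 and -1.98) were not called. Their summed TPM was 156, 325 and 645 in the LV and 123, 250 and 482 in the RV of WT-PLN hearts, samples 1 to 3. In R14del-PLN hearts it was 97.0, 101 and 134 in the LV and 86.6, 98.9 and 87.4 in the RV. Sample 1 was thus lowest among the WT-PLN samples of each ventricle, as it was for Sik1 and Nuak2. The same held for Pim2, and for Sik2 and Sik3, which overlapped between genotypes. Sik1 was highest in WT-PLN sample 2 and the early gene sum in sample 3. Pim3 had no such order, and in the number 1 WT-PLN samples it stood at 35.2 and 35.4 TPM. Of the 22, Fosb, Egr2, Egr3 and Nr4a2 averaged below 0.5 TPM in both R14del-PLN groups, so they passed the filter through the WT-PLN samples alone. Values below 0 were also seen in 71.7% of all genes in the LV and 50.9% in the RV. The list was chosen with earlier results of these data known, so its counts are descriptions. The part of the 22 early genes in the kinase values was not tested.

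**Figure D4:**
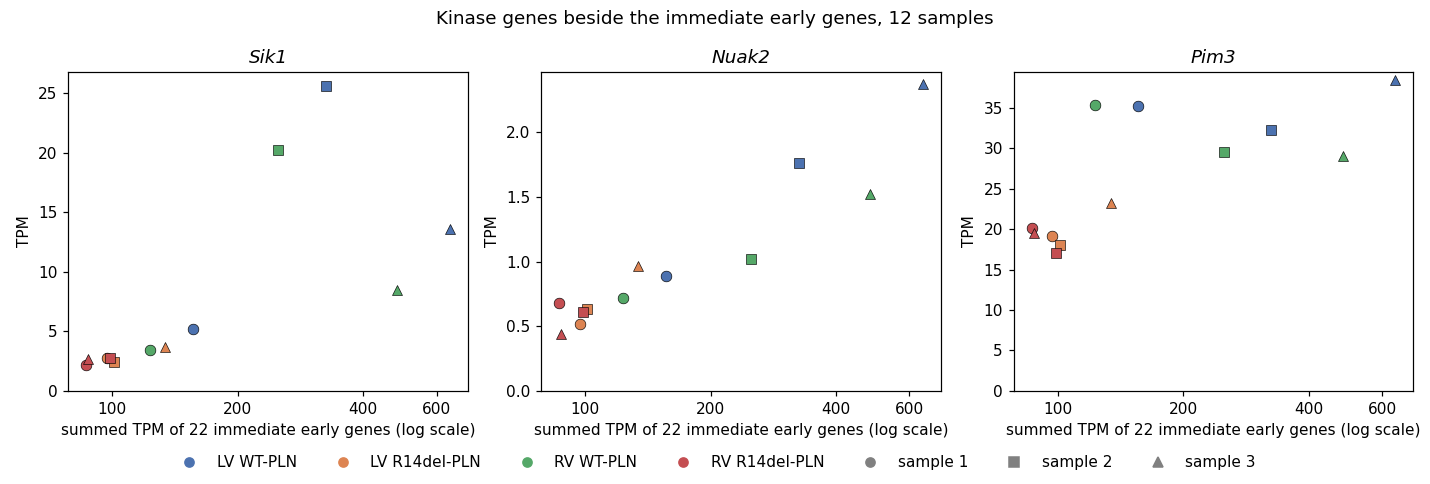
TPM of Sik1, Nuak2 and Pim3 (y axes, from 0) in each of the 12 samples against the summed TPM of 22 immediate early genes (x axes, log scale). Nuak2 climbs along the axis from 0.438 to 2.37 TPM, Sik1 peaks at 25.6 TPM in the sample with a sum of 325 TPM, and Pim3 forms a group of WT-PLN samples at 29.1 TPM or more and a group of R14del-PLN samples at 23.2 TPM or less.

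Genes induced by glucocorticoid hormones were also lower. Of 8 on the list, 5 were called in the LV and 2 in the RV, all lower, with medians of -1.25 and -1.20. The leucine zipper gene Tsc22d3 (-1.20 in the LV and -1.14 in the RV) and the transcription factor gene Zbtb16 (-1.30 and -1.26) were called in both ventricles. Fkbp5, a co-chaperone of the receptor (-1.20), the metallothionein gene Mt2 (-1.84) and Cdkn1a (-1.57) were called in the LV alone, with RV values of -0.94, -1.63 and -1.42 that were not called. Errfi1, a brake on EGF receptor signalling, had the largest values (-2.45 and -2.58) and was not called. Among 14 clock genes, Per1 was called in both ventricles (-1.23 and -1.05) and no other was. These lists were chosen with earlier results of these data known, and what they share with the kinases was not tested.

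Substrates and regulators of the kinases were then listed. Of 9 PIM substrates, Cdkn1a, which encodes the cell cycle inhibitor p21, was the 1 called, lower in the LV. The transcription factor Foxo3 (-0.57 in the LV and -0.65 in the RV), Myc (-0.47 and -0.32), the cell cycle inhibitor Cdkn1b (-0.45 and -0.28) and Foxo1 (-0.37 and -0.13) were not called, and Bad, the death factor that PIM kinases inactivate, was at -0.04 and -0.01. None of 14 tested receptors, JAKs, STATs and SOCS inhibitors upstream of PIM genes was called in any comparison. The interleukin 6 receptor Il6ra stood at -0.44 and -0.42, and the feedback inhibitor Socs3 at -0.61 and -0.33.

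No gene was called among the 7 SIK substrates, the 5 CREB family genes, the 8 PKA subunits and inhibitors, the 6 tested 14-3-3 genes or the 7 NUAK partners. Of the SIK substrates, the deacetylase gene Hdac9 was at 0.37 in the LV and 0.34 in the RV, Hdac4 at -0.29 and -0.22 and the coactivator gene Crtc2 at -0.11 and -0.13. The PKA catalytic subunit gene Prkaca was at 0.04 in both ventricles. The myosin phosphatase genes Ppp1cb and Ppp1r12a, on which NUAKs act, were at -0.38 and -0.27 in the LV and -0.28 and 0.08 in the RV. None of the 5 genes of the LKB1 complex was called, with Stk11, the gene of LKB1, at 48.5 TPM in WT-PLN and 46.2 TPM in R14del-PLN LV (means). The 7 tested other AMPK-related kinases were not called either, with the largest value in Snrk (-0.47 and -0.27).

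The second question was whether the kinases differed between the ventricles, a contrast that is independent of the genotype values behind the choice of the genes. None of the 8 was called in the RV against the LV over both genotypes, where the same limma rule called 0.263% of all genes, and 1 had an unadjusted p of at most 0.05, beside 21.5% of all genes. That gene was Nuak1, at 9.07 ± 1.14 TPM in WT-PLN LV and 6.09 ± 0.269 TPM in WT-PLN RV (SD, n = 3 each). In the mutants it was at 6.99 ± 1.34 TPM in the LV and 4.97 ± 1.2 TPM in the RV. The log2 fold change of Nuak1 was -0.46 (SE 0.12, 95% interval -0.71 to -0.21, limma adjusted p = 0.0672), and the adjusted p ranged from 0.0351 to 0.179 over the alternatives, all short of 1.5-fold. Nuak1 was lower in the RV in 6 of 6 samples with the same number, at 0.529 to 0.911 times the LV. The WT-PLN ranges of the ventricles did not overlap, and those of R14del-PLN did. The share of all genes with either pattern was not counted, and 82.1% of all genes were below 0 in this contrast. All genes had a median of -0.12 in this contrast, so Nuak1 lay -0.34 from it.

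**Figure D5:**
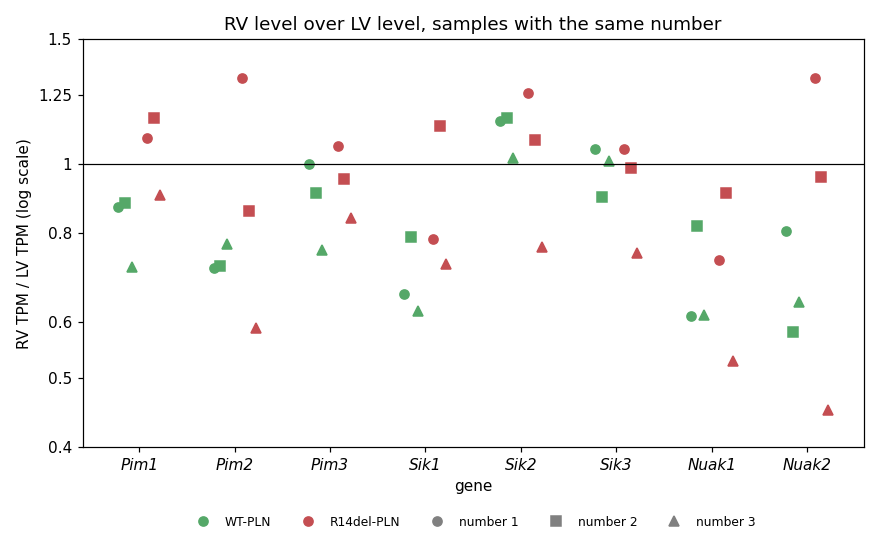
RV TPM over LV TPM (y axis, log scale, line at 1) of each kinase gene (x axis) for samples of a genotype with the same number. All 6 Nuak1 points lie below 1, from 0.529 to 0.911, and the other genes have points on both sides.

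The other 7 kinases gave limma adjusted p of 0.268 (Pim2, log2 fold change -0.18), 0.382 (Nuak2, -0.22), 0.463 (Pim3, -0.12), 0.632 (Sik1, -0.32), 0.666 (Pim1, -0.09), 0.739 (Sik3, -0.07) and 0.792 (Sik2, 0.06). In all, 7 of 8 were below 0, beside 82.1% of all genes, and Pim1, Pim3 and Sik3 turned to just above 0 (0.03, 0.03 and 0.08) under quantile normalization. The 95% intervals of Pim3 (-0.33 to 0.08) and Sik3 (-0.29 to 0.16) were narrow, whereas that of Sik1 (-1.10 to 0.46) left room for more than 1.5-fold in the lower direction. Markers of several other cell types had values below 0 in the RV against the LV too, although none was called. All 7 endothelial markers did so, with a median of -0.36 and sums of 154 to 198 TPM in the LV and 116 to 156 TPM in the RV. All 7 smooth muscle and pericyte markers did, with a median of -0.38 and sums of 160 to 407 TPM in the LV and 157 to 215 TPM in the RV, as did all 7 tested macrophage markers (median -0.23) and all 7 fibroblast markers (median -0.15). Red cell genes had a median of -0.39, with 5 of 5 below 0. All genes had a median of -0.12, with 82.1% below 0, and the 6 ventricular cardiomyocyte markers had a median of 0.01, with 2 below 0. Of the endothelial markers, Tie1 (-0.51, limma adjusted p = 0.0325) and Egfl7 (-0.52, 0.0348) alone met the adjusted p, and neither met the fold. Nuak1 met neither limit. The part of all these cells in the Nuak1 value was not tested.

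An interaction term asked whether the genotype difference itself was unequal in the LV and RV. Of the 8 kinases 0 were called, 0 had an unadjusted p of at most 0.05, and all 8 had a limma adjusted p of 0.9999. The rule called 0% of all genes here, and 1.01% had an unadjusted p that low. For Pim3 the RV difference minus the LV difference was 0.09 (SE 0.19, 95% interval -0.31 to 0.50), and for Pim1 it was 0.27 (SE 0.22, -0.19 to 0.74). For Sik1 the interval was too wide to be informative (0.32, SE 0.72, -1.23 to 1.88). The LV call of Pim3 and its missing RV call therefore do not show that the ventricles differ.

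For each kinase, the genes of most similar pattern were taken by Pearson r of log2(TPM + 1) over the 12 samples, among 6850 genes that averaged 5 TPM or more. The samples may share animals and fall into genotypes, so these are descriptions. Pim3 was closest to the stress gene Sesn1 (r = 0.954, rho = 0.846), the hormone-responsive factor Klf9 (r = 0.954, rho = 0.888) and the ribosomal protein gene Rpl34 (r = 0.949, rho = 0.867). Sik1 was closest to the cardiac factor Hand2 (r = 0.979, rho = 0.902), the heat shock gene Hspa1b (r = 0.973, rho = 0.776) and Coq10b of the coenzyme Q pathway (r = 0.973, rho = 0.895). Nuak2 was closest to the translation initiation factor Eif1a and the G protein subunit Gnai3 (r = 0.979 each) and to Ppp1r15b (r = 0.978), which directs a phosphatase to eIF2. Nuak1 was closest to Slc35f5 (r = 0.959), Dnajb5 (0.938) and Shb (0.930), Pim2 to the splicing factor Srsf6 (0.969), Stx5a (0.958) and Tgfbi (0.953), and Sik3 to Galk2 (0.953), Medag (0.951) and Tbk1 (0.917). The lowest were those of Pim1 (Dot1l 0.893, Fbxo9 0.886, Uri1 0.880) and Sik2 (Pmvk 0.921, Brap 0.870, Matn2 0.859). Rpl34 and Hspa1b have near-identical relatives, so their values are less certain. No gene was named for more than 1 of the kinases. Between the kinases, Pim3 and Sik1 had r = 0.686 over all 12 samples and -0.356 once group means were removed, whereas Sik3 and Nuak2 had 0.85 and 0.935.

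Markers of other cell types were checked beside the genotype values. Red cell genes were lower in R14del-PLN hearts, with 5 of 5 below 0 in each ventricle and medians of -0.62 and -0.59. Their sums were 2090 to 2320 TPM in the LV and 1460 to 1740 TPM in the RV of WT-PLN hearts, and 1090 to 2140 and 956 to 1370 TPM in R14del-PLN hearts. Atrial cardiomyocyte genes spread widely, with sums of 221 to 1320 TPM in the WT-PLN LV and 158 to 331 TPM in R14del-PLN LV. In the RV the sums were 98.8 to 899 against 58.3 to 537 TPM. The 5 tested atrial genes had medians of -2.30 in the LV and -0.07 in the RV, with Myl7 at -4.32 and 1.51 (SE 1.96 each). Bmp10 was listed at 0 in 2 samples and nowhere above 0.0954 TPM. Neutrophil genes summed to 0.668 to 14.9 TPM in the WT-PLN LV and 0.628 to 1.28 TPM in R14del-PLN LV. Fibroblast genes had a median of -0.35 in the LV and -0.14 in the RV, and smooth muscle and pericyte genes -0.34 and 0.19. The 3 tested adipocyte genes had medians of -0.58 and 0.41, and macrophage and ventricular cardiomyocyte genes medians within 0.09 of 0. The 7 endothelial genes had medians of 0.06 and 0.18, with 3 below 0 in the LV and 2 in the RV, and Kdr highest at 0.47 and 0.56. No marker gene was called in these comparisons. The part of these cells in the kinase values was not tested.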

How the data were processed

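RNA was sequenced from 12 samples, 3 for each ventricle and genotype, with polyA stranded libraries per the study, whose reads were mapped to GRCm38 in CLC Genomics Workbench. The deposited values are TPM that the authors computed, taken here without rescaling. The program and annotation behind the TPM and the use of strand in counting are not given in the sources used here. TPM of each sample sum to 1000000 and keep no depth, so counting error is unknown. Groups and numbers were taken from the sample labels, which do not say whether LV and RV samples with the same number came from the same mouse, so p-values measure the spread between samples.

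Genes averaging 0.5 TPM or more entered limma 3.58.1 (R 4.3.3) as log2(TPM + 1), with 4 group means over all 12 samples. Variances were moderated along an intensity trend, which left 8 residual degrees of freedom and added 5.15. Calls needed an adjusted p of at most 0.05 (Benjamini-Hochberg over all tested genes) and a fold of at least 1.5, the threshold of the study. The model was also run on simulated data with known changes. Those values were independent between samples and changed only in genes well above the filter, so the run does not cover related samples or low genes. Near-identical transcripts were sought with BLAST+ 2.17.0 and counted at 95% identity over 80% of the shorter transcript, and the other steps ran in Python 3.11.15.

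The kinases and the gene lists were chosen with earlier results of these data known, so no p of a single kinase is printed for the genotype comparisons, whose calls and counts are descriptions, and no list was tested. Named genes were the 8 kinases, the 3 genes most like each, Pln and Atp2a2, and of each list the called genes and at most 4 others with the largest log2 fold change. Bad, Crtc2, Prkaca, Stk11 and Ppp1r12a were named for their role. Atp2a2 was at 2970 TPM in WT-PLN LV, 2960 TPM in WT-PLN RV, 2820 TPM in mutant LV and 2750 TPM in mutant RV (means). Alternatives were other pseudocounts, filters, scalings, fold thresholds, replicate blocks, single ventricles and samples left out. A fixed block by animal, taken as genotype and number, was added after the data had been seen, for RV against LV and the interaction only.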

Additional observations from a re-analysis of the deposited data

How the results depend on the processing

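Called kinases were counted under 27 alternatives for each genotype comparison. In the LV, where 1 (Pim3) was called, a fold threshold of 2 and the LV samples alone each gave 0. Leaving out a sample gave between 0 and 3, the latter (Pim3, Sik1 and Nuak2) without LV WT-PLN sample 1, and leaving out both WT-PLN samples with number 1 also gave 3. In the RV, where 0 were called, 1 (Pim3) was called with a filter at 5 TPM, which kept 4 of the 8 kinases, with quantile normalization, with upper quartile scaling, without mitochondrially encoded genes, and with the sample number as a fixed block. Leaving out a sample gave between 0 and 1 in the RV, and leaving out both WT-PLN samples with number 1 gave 1 (Sik1). In all, Pim3 was called in 21 of 27 alternatives in the LV and 6 of 27 in the RV, and its log2 fold change stayed between -0.89 and -0.67 and between -0.74 and -0.61. The counts for RV against LV and for the interaction were 0 under every alternative run.

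Values without a call turned sign as follows. For RV against LV, Pim1, Pim3 and Sik3 were at 0.03, 0.03 and 0.08 under quantile normalization, at 0.03, 0.02 and 0.07 under upper quartile scaling and at 0.03, 0.02 and 0.08 without mitochondrially encoded genes, and leaving out a sample moved Sik2 to between -0.00064 (without LV WT-PLN sample 1) and 0.15. For the interaction, Nuak1 was at -0.02 under quantile normalization and -0.01 under upper quartile scaling, where Pim3 was at -0.00058. Leaving out a sample moved the interaction of Sik1 to between -0.24 and 0.89, that of Sik2 to between -0.21 and 0.07, that of Sik3 to between -0.18 and 0.04 and that of Nuak1 to between -0.08 and 0.19. In the main fit all genes had a median of -0.12 for RV against LV, and the cause of these turns was not tested.

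Deviations from group means correlated at 0.321 to 0.657 between LV and RV samples with the same number in WT-PLN hearts and at 0.0542 to 0.389 in R14del-PLN hearts, where 1 pair fell short of the 0.1 asked of every pair. The labels do not state a pairing, so the comparisons reported use no block. Each of 6 WT-PLN samples, and 4 of 6 R14del-PLN samples, correlated best with its own number in the other ventricle. Between the genotypes, whose samples come from different mice, 4 of 6 samples in the LV and 5 of 6 in the RV did so too. What samples with the same number share was not tested. The replicate block by number moved the called genes from 65 to 119 in the LV and from 34 to 62 in the RV, and a fixed block by animal moved those for RV against LV from 33 to 95. A random block had a consensus correlation of 0.0885. The blocks changed no call of a kinase but that of Pim3 in the RV. Over the alternatives, all called genes numbered 19 to 231 in the LV and 14 to 88 in the RV. TPM keeps no depth, so the counting error of the low genes Nuak2 and Pim2 is unknown, and 3 samples a group limit every comparison.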
